A study of Mus musculus with 21 samples.

Results

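MiRNA levels in the superior olivary complex (SOC) were compared between embryonic day 16 (E16) and the day of birth (P0). The SOC is a group of auditory nuclei in the brainstem that receives its input from the cochlear nuclei and compares the sounds of both ears. The comparison uses 8 of the 21 libraries of the study, which profiled small RNA of mouse cochlea and SOC at several ages, and these are the 4 SOC libraries of E16 and the 4 SOC libraries of P0. All came from wild-type C57Bl6/J mice with no treatment, and each library was made from pooled animals. For the SOC the methods state both sexes for the P0 mice, and not for the E16 embryos. No knockout, transgene or experimental agent separates the groups, which differ by age only as far as the labels go. E16 embryos were taken by C-section from anesthetized mothers, while the methods name no anesthesia for the P0 mice. The dissection differed with age, since the SOC was cut from frozen whole heads at E16 and from brains taken out of the skull at P0. Tissue from around the brain and developmental age therefore cannot be told apart in any E16 to P0 difference below.

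MiRNAs are short RNAs that guide Argonaute proteins to messenger RNAs, mainly through the seed at bases 2 to 8, and lower the stability or translation of these targets. Many of them mark a tissue: miR-124 and miR-9 neurons and their precursors, miR-206 and miR-208b muscle, miR-205 and the miR-200 family epithelia, miR-199a and miR-214 mesenchyme, and miR-140 cartilage. The miR-183/miR-96/miR-182 cluster is known from sensory cells, among them the hair cells of the inner ear, and let-7 is known for its rise as embryonic tissues mature. In the SOC the days around birth follow the migration of its neurons and precede hearing.

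The mature sequences of the miRNAs on which the results turn are printed below, from the RefSeq miRNA table of the GRCm38.p6 assembly, with the seed in capitals. The first 3 are DE miRNAs of epithelium, muscle and mesenchyme with different seeds, the next 2 are miR-200 family members with the same seed, the next 3 come from the miR-183/miR-96/miR-182 cluster, and the last 5 include the pair of let-7 members that rose.
miR-205-5p: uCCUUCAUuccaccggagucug
miR-206-3p: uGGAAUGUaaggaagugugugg
miR-214-5p: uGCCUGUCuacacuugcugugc
miR-200c-3p: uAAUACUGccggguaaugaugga
miR-429-3p: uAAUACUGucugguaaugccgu
miR-182-5p: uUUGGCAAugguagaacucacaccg
miR-96-5p: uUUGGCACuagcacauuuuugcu
miR-183-5p: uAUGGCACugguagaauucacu
miR-1224-5p: gUGAGGACuggggagguggag
miR-212-5p: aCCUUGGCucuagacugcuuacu
miR-10a-5p: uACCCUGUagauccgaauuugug
let-7b-5p: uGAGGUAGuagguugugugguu
let-7c-5p: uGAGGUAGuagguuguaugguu

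Total counts were 10090519 to 18053698 at E16 (median 13066679) and 8915671 to 17741834 at P0 (median 11709246). The libraries fell into sets that the labels do not name. Set A (E16 replicates 2 and 3, P0 replicates 2 and 3) had 17.2 to 19.6% of its counts on miR-99b-5p. Set B (E16 replicates 1 and 4, P0 replicate 1) had 1.64 to 3.63% there and 3.84 to 4.70% on miR-191-5p. P0 replicate 4 alone formed set C, with 0.316% of its counts on miR-191-5p, and had no E16 library like it. This library stood apart on the first principal component (44.4% of the variance), at 39.4 against 0.223 to 3.61 for the other P0 libraries and -13.8 to -6.51 for the E16 libraries. Results are therefore given with and without it where it matters.

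Of 652 miRNAs tested, 46 (7.06%) were differentially expressed (DE) between P0 and E16, with 31 lower at P0 (4.75%) and 15 higher (2.3%). DE means a false discovery rate (FDR) under 0.05 in the quasi-likelihood test of edgeR, Benjamini-Hochberg adjusted, together with more than a 1.5-fold difference and values of the 4 E16 libraries that lay entirely above or below those of the 4 P0 libraries. Decreases were 2.81-fold to 75.7-fold and increases 2.61-fold to 9.45-fold. Of the 31 decreases 26 belonged to the tissue and cluster lists described below, and of the 15 increases 6 did. The lists were chosen with earlier results of these data known, so nothing is read from these counts. The median log2 change over all 652 was 0.15 with TMM normalization and 0.27 with library totals alone, and the latter gave 29 lower and 24 higher DE miRNAs. All libraries are bulk tissue, so fewer cells of a type and less miRNA per cell cannot be told apart. Without P0 replicate 4, 97 of 637 miRNAs (15.2%) were DE, 54 of them lower (8.48%) and 43 higher (6.75%), and all 46 were among them. Leaving out P0 replicate 3 gave 19 DE miRNAs (17 lower, 2 higher), and leaving out E16 replicates 1, 2 or 3 gave 23, 24 or 27, with 1, 1 and 3 increases.

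**Figure D1:**
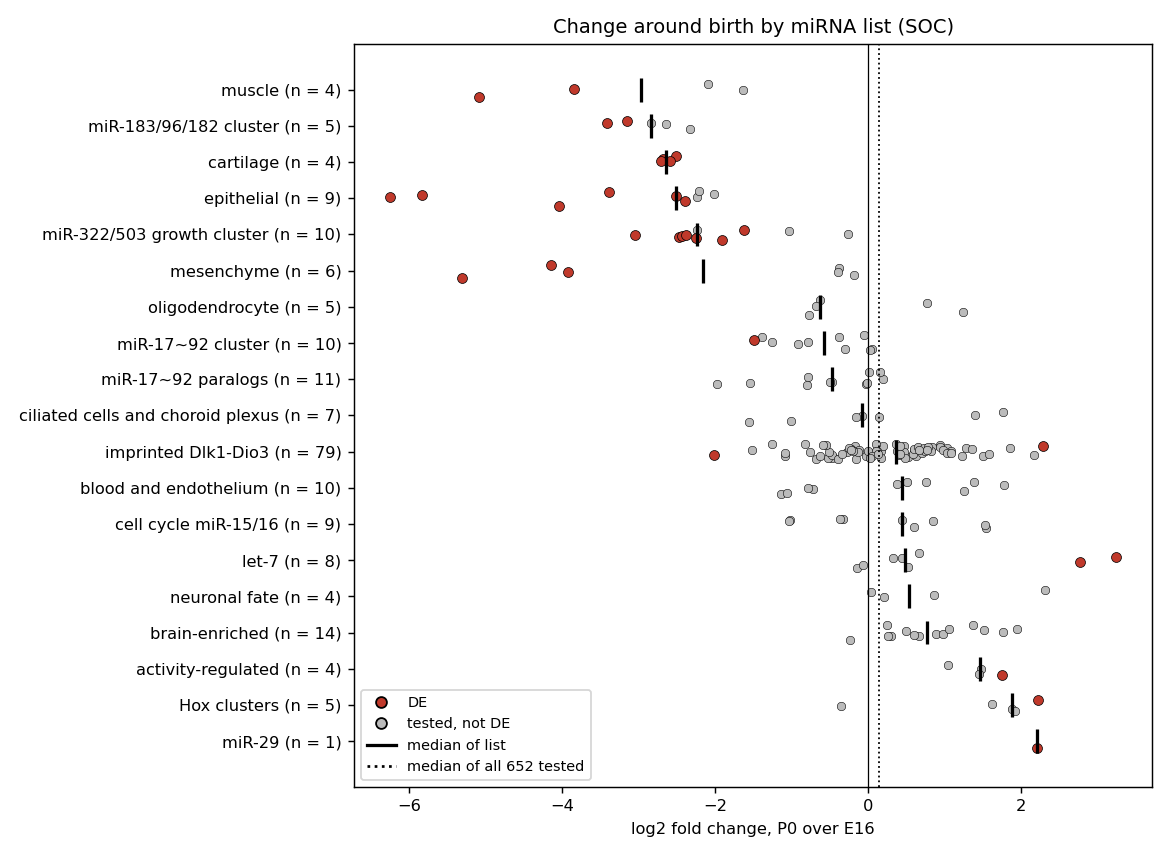
Log2 fold change (P0 over E16) of each tested miRNA, grouped by list, with the number tested in brackets. Red points are DE, grey points are tested miRNAs that were not DE, thick ticks are list medians and the dotted line is the median of all 652 miRNAs tested (0.15). The muscle, miR-183/miR-96/miR-182, cartilage, epithelial, miR-322/miR-503 and mesenchyme lists have the lowest medians, between -2.96 and -2.16.

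The epithelial list held the largest decreases. Of its 9 tested members 6 fell and 0 rose, against 4.75% of all tested miRNAs that fell, and the list's median log2 change was -2.51 (all tested: 0.15). MiR-205-5p, a miRNA of stratified epithelia, was at 1183, 813, 383 and 388 CPM in E16 replicates 1 to 4 and at 6.65, 7.77, 20.6 and 1.41 CPM in P0 replicates 1 to 4. Every E16 library thus lay far above every P0 library, and P0 replicate 4 was the lowest of all. The log2 change of miR-205-5p was -6.24 (SE 0.84, FDR 0.00255), a 75.7-fold decrease from 692 ± 384 to 9.11 ± 8.16 CPM (SD, n = 4 each). Its passenger strand miR-205-3p fell with it (log2 change -5.83, SE 0.98, FDR 0.00434). MiR-205-3p had a mean of 5.44 CPM over the 8 libraries, so the size of its change rests on few counts at P0. Their hairpin lies on chromosome 1 of GRCm38 (chr1:193507463-193507530, minus strand), in an exon of the long noncoding RNA 4631405K08Rik.

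MiR-200c-3p, which represses the Zeb factors of epithelial-mesenchymal transition, was at 153, 272, 241 and 177 CPM at E16 and at 3.39, 31.5, 9.25 and 6.95 CPM at P0. The highest P0 value was in a set A library, and no P0 library reached the lowest E16 value (log2 change -4.04, SE 0.68, FDR 0.00434). MiR-429-3p has the same seed and is encoded elsewhere, on chromosome 4 (chr4:156053905-156053987, minus strand) in an intron of Ttll10 (log2 change -2.51, SE 0.61, FDR 0.0305). MiR-200c-3p and miR-141-5p come from hairpins within 477 bp of each other on chromosome 6 (chr6:124717914-124718390, minus strand), and miR-141-5p fell by 3.38 on the log2 scale (SE 0.71, FDR 0.0167). MiR-203-3p, known for its role in skin differentiation, went from 300 ± 107 to 56.9 ± 26.8 CPM (log2 change -2.40, SE 0.50, FDR 0.0158). The 3 members that were not DE also had log2 changes below -2, with miR-200a-5p at -2.24 (FDR 0.0912), miR-200b-5p at -2.20 (FDR 0.0951) and miR-203-5p at -2.01 (FDR 0.168). The replicate block took same-numbered E16 and P0 libraries as pairs, from the values alone. With this block miR-200a-5p was DE as well (FDR 0.0362), and the limit holds wherever the block is named below. Summed over the list, the level was 969 to 2022 CPM at E16 and 70.5 to 199 CPM at P0.

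Muscle miRNAs were tested in 4 cases, of which 2 fell and 0 rose (median log2 change -2.96). Of all tested miRNAs 4.75% fell and 2.3% rose. MiR-206-3p, a miRNA of skeletal muscle, was at 249, 149, 95.7 and 189 CPM in the E16 libraries and at 3.58, 3.56, 5.10 and 7.89 CPM in the P0 libraries. Its P0 values lay close together and the lowest E16 value was still far above them. This was the decrease with the lowest FDR in the comparison (log2 change -5.09, SE 0.50, FDR 0.000287), a 34.0-fold difference. MiR-206 is encoded on chromosome 1 (chr1:20679010-20679082, plus strand) in an exon of the noncoding RNA Gm28653. MiR-208b-3p, encoded in an intron of the slow myosin gene Myh7 (chr14:54975700-54975776, minus strand), had 46.8, 23.5, 22.8 and 21.5 CPM at E16 and 3.25, 3.02, 1.02 and 0.589 CPM at P0 (log2 change -3.84, SE 0.61, FDR 0.00415). For miR-1a-3p and miR-499-5p the log2 changes were -1.63 (FDR 0.122) and -2.09 (FDR 0.0553). The summed level of the list was 140 to 347 CPM at E16 and 11.3 to 28.7 CPM at P0.

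The mesenchyme list split into members that fell strongly and members with small differences. MiR-214-5p was at 489, 722, 641 and 342 CPM at E16 and at 12.6, 26.5, 13.5 and 71.6 CPM at P0, where replicate 4 was the highest (log2 change -4.14, SE 0.64, FDR 0.00415). MiR-214-3p again had its highest P0 level in replicate 4, with 803, 685, 548 and 1915 CPM at E16 and 15.6, 20.2, 33.2 and 192 CPM at P0 (log2 change -3.92, SE 0.86, FDR 0.019). The third decrease was that of miR-199a-5p, from 12.1 ± 5.41 to 0.295 ± 0.298 CPM (log2 change -5.30, SE 0.82, FDR 0.00415). At P0 3 counts correspond to 0.256 CPM on average, so the size of this change rests on few counts. Hairpins of miR-199a and miR-214 lie within 5664 bp on chromosome 1 (chr1:162217814-162223477, plus strand) in exons of Dnm3os, which is transcribed antisense to Dnm3, and miR-199a has a further copy on chromosome 9. In contrast, miR-143-3p, a miRNA of smooth muscle and fibroblasts, was at 14887 to 23930 CPM at E16 and at 13434 to 19654 CPM at P0, and these ranges overlapped (log2 change -0.19, SE 0.37, FDR 0.814). MiR-145a-5p and miR-145a-3p had log2 changes of -0.40 and -0.37, also without a call. So 3 of 6 members fell, where 4.75% of all tested miRNAs did. The summed level, which miR-143-3p makes up almost wholly, overlapped between the ages.

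All 4 cartilage miRNAs fell (median log2 change -2.64), where 4.75% of all tested miRNAs did. MiR-140-5p, which is encoded within Wwp2 (chr8:107551244-107551313, plus strand) and needed for growth of cartilage, was at 575, 496, 711 and 230 CPM at E16 and at 88.6, 104, 80.0 and 40.5 CPM at P0. The libraries of the ages did not overlap, although E16 replicate 4 stood well below the other E16 libraries (log2 change -2.68, SE 0.47, FDR 0.00574). The other arm, miR-140-3p, fell by 2.51 on the log2 scale (SE 0.47, FDR 0.00771). MiR-455-5p had 373, 407, 371 and 192 CPM at E16, and at P0 it had 30.2, 35.2 and 30.2 CPM in replicates 1 to 3 and 127 CPM in replicate 4 (log2 change -2.59, SE 0.56, FDR 0.019). MiR-455-3p fell by 2.71 (SE 0.51, FDR 0.00771). In sum the cartilage miRNAs were at 681 to 1292 CPM at E16 and at 137 to 256 CPM at P0.

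These lists were used to see which tissues the libraries held. The labels call the cells neuronal, and the neuronal miR-9-5p was among the most abundant miRNAs at both ages, at 33962 to 112330 CPM at E16 and 21645 to 98283 CPM at P0. Members of the epithelial, muscle and cartilage lists were nevertheless detected at E16, and the summed levels of these lists did not overlap between the ages. The CPM filter was passed by 9 of 13 listed epithelial, 4 of 13 muscle and 4 of 4 cartilage miRNAs. Members over 1 CPM at E16 alone also passed it. The share of the other decreases that goes with such tissue was not tested. Of 10 blood and endothelium miRNAs tested, 0 were DE with edgeR, where 7.06% of all tested miRNAs were. In this list 2 had an unadjusted p under 0.05 with edgeR, as had 150 of all 652 tested miRNAs. With DESeq2 2 were DE, as were 81 of all 652. The median log2 change of the list was 0.44, or -0.31 without P0 replicate 4. MiR-150-5p, a lymphocyte miRNA, had a log2 change of 1.25 with an FDR of 0.0539, or 0.0483 with the replicate block. Their sum was 1026 to 1530 CPM at E16, 1056 to 1695 CPM in P0 replicates 1 to 3 and 7976 CPM in P0 replicate 4. The endothelial miR-126a-3p accounted for most of this, at 7580 CPM in P0 replicate 4 against 810 to 1399 CPM in the other P0 libraries.

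**Figure D2:**
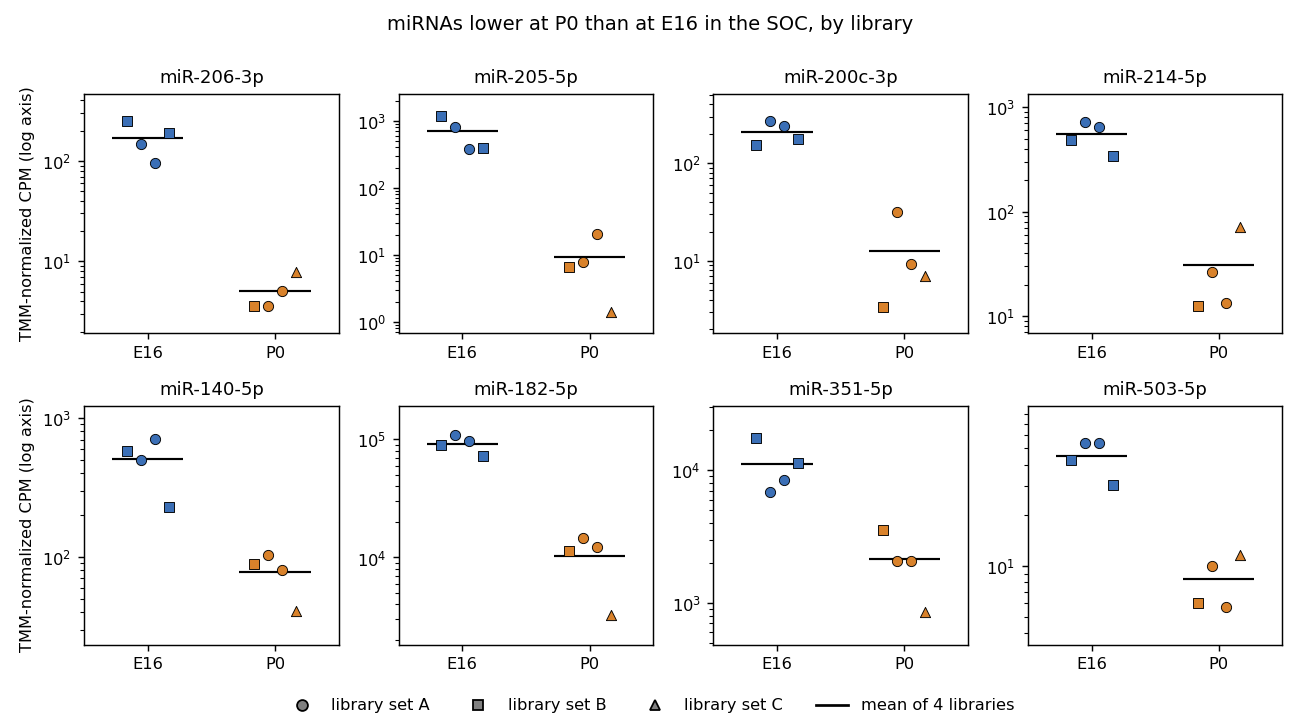
TMM-normalized CPM (log axis) of 8 miRNAs lower at P0, in each of the 4 E16 and 4 P0 libraries. Marker shape gives the library set and the line the mean of 4 libraries; in every panel all E16 libraries lie above all P0 libraries.

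The miR-183/miR-96/miR-182 cluster supplied the most abundant miRNA that fell. MiR-182-5p was at 89798, 108118, 96414 and 72321 CPM at E16 and at 11393, 14499, 12246 and 3276 CPM at P0. Its E16 values lay within a narrow band, and P0 replicate 4 was again far below the rest of its group. The log2 change of miR-182-5p was -3.15 (SE 0.52, FDR 0.00434), and it was -2.86 (FDR 0.000201) without P0 replicate 4. MiR-183-3p fell by 3.41 on the log2 scale (SE 0.55, FDR 0.00415).

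MiR-183-5p and miR-96-5p, the other guide strands of the cluster, were not DE. MiR-183-5p was at 13200, 54810, 63114 and 13603 CPM at E16 and at 1719, 13791, 12044 and 1168 CPM at P0, high in the set A libraries of both ages and low in the others. Its log2 change of -2.33 (SE 0.86) had an FDR of 0.132 in the comparison of all 8 libraries, 3.03e-05 with the library set as a covariate and 0.00658 with the replicate number as a block. Within set A the log2 change was -2.18 (FDR 0.000362) and within set B it was -2.96 (FDR 0.00102). MiR-96-5p, in whose seed mutations cause hearing loss, was at 159, 222, 432 and 26.3 CPM at E16 and at 24.9, 52.5, 34.9 and 5.18 CPM at P0. E16 replicate 4 overlapped the P0 libraries, and the log2 change of -2.83 (SE 0.82) had an FDR of 0.0584. With the replicate block, whose pairs were taken from the values alone, the FDR was 0.00543. The cluster spans 3820 bp of chromosome 6 (chr6:30165918-30169737, minus strand) with no annotated host gene. Of its 5 tested mature miRNAs 2 fell and 0 rose, where 4.75% and 2.3% of all tested miRNAs did. The log2 changes of the 5 ran from -3.41 to -2.33. Summed, the cluster was at 86038 to 163176 CPM at E16 and 4453 to 28347 CPM at P0.

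Another group of decreases came from the X chromosome. The miR-322/miR-503 cluster, whose members restrain the cell cycle and myoblast growth, has 6 hairpins within 6353 bp (chrX:53047997-53054349, minus strand), and 6 of the 8 mature miRNAs tested from them fell. MiR-351-5p, a member of the same list for which the RefSeq table gave no position, was its most abundant miRNA, at 17539, 6794, 8450 and 11284 CPM at E16 and at 3518, 2065, 2060 and 848 CPM at P0 (log2 change -2.38, SE 0.52, FDR 0.019). MiR-503-5p was at 42.4, 53.4, 53.5 and 30.4 CPM at E16 and at 6.04, 10.1, 5.72 and 11.5 CPM at P0 (log2 change -2.43, SE 0.41, FDR 0.00434). No library of either miRNA crossed into the range of the other age. Both arms of miR-503 fell, miR-450b-5p fell by 3.04, miR-322-3p by 2.24, miR-450a-5p by 1.91 and miR-542-3p by 1.62 on the log2 scale. MiR-322-5p and miR-542-5p were not DE, with log2 changes of -1.04 (FDR 0.178) and -0.27 (FDR 0.87). The latter was at 71.4 CPM in P0 replicate 4 and at 7.31 to 9.41 CPM in the other P0 libraries, and without replicate 4 its FDR was 0.00465. In all, 7 of the 10 tested list members fell and 0 rose (median log2 change -2.24), where 4.75% and 2.3% of all tested miRNAs did.

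Single decreases lay outside these groups. MiR-675-3p, cut from an exon of the imprinted growth-regulating RNA H19 (chr7:142577064-142577147, minus strand), was at 12.3, 20.3, 14.0 and 16.1 CPM at E16 and at 1.49, 1.64, 2.59 and 1.65 CPM at P0. Both groups were tight, and the log2 change was -3.09 (SE 0.42, FDR 0.00255). MiR-493-3p of the imprinted Dlk1-Dio3 region fell by 2.01 (FDR 0.0286), miR-152-5p, from an intron of Copz2, by 1.71 (FDR 0.044), and miR-18a-3p, of the proliferation-linked miR-17~92 cluster, by 1.49 (FDR 0.0483). Of the 10 tested miR-17~92 members miR-18a-3p was the one that was DE, where 7.06% of all tested miRNAs were. The median of the list was -0.58. MiR-20a-5p of the same cluster was at 382 to 931 CPM at E16 and at 288 to 487 CPM at P0 (log2 change -0.78, FDR 0.256). Its X-linked relative miR-20b-5p was at 1.84 to 5.84 CPM and 0.471 to 1.57 CPM, with a log2 change of -1.98 that was not called (FDR 0.0612) except with the replicate block (FDR 0.0262). MiR-6715-5p lies in an exon of Tectb, the gene of beta-tectorin (chr19:55192678-55192734, plus strand). It was at 1.22, 15.0, 10.5 and 1.14 CPM at E16 and at 0 to 0.943 CPM at P0, and its log2 change of -4.50 (FDR 0.0394) was not called with the replicate block (FDR 0.0533). MiR-12191-3p and miR-5122 fell from 13.2 ± 6.41 to 0.900 ± 0.589 CPM and from 2.80 ± 2.94 to 0.0857 ± 0.0996 CPM.

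The 15 increases had a median log2 change of 2.11, against -3.04 for the 31 decreases. MiR-1224-5p, from an intron of Vwa5b2 (chr16:20604452-20604536, plus strand), was at 17.5, 34.5, 37.0 and 47.7 CPM at E16 and at 93.8, 210, 272 and 166 CPM at P0. The lowest P0 library lay clearly above the highest E16 library, and the log2 change was 2.44 (SE 0.46, FDR 0.00831). It was the only one of the 15 increases that was DE whichever of the 8 libraries was left out, against 17 of the 31 decreases. MiR-1298-3p, from an intron of the serotonin receptor gene Htr2c (chrX:147064905-147065002, plus strand), was at 61.4, 110, 119 and 59.1 CPM at E16 and at 239, 260, 289 and 398 CPM at P0 (log2 change 1.76, SE 0.40, FDR 0.0216).

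The activity-regulated miRNAs miR-132 and miR-212 share a CREB-dependent primary transcript on chromosome 11. MiR-212-5p was at 14.1, 19.5, 16.6 and 14.0 CPM at E16 and at 31.2, 48.4, 56.6 and 79.1 CPM at P0, and it rose (log2 change 1.75, SE 0.39, FDR 0.0209). For miR-132-3p the E16 libraries had 129, 176, 198 and 224 CPM and the P0 libraries 366, 339, 422 and 886 CPM. These did not overlap either, as was true of 17% of all miRNAs tested, but the log2 change of 1.47 (SE 0.42) had an FDR of 0.0584, or 0.0439 with the replicate block. MiR-212-3p and miR-132-5p had log2 changes of 1.05 (FDR 0.132) and 1.44 (FDR 0.0726). So 1 of 4 list members rose, where 2.3% of all tested miRNAs did, and the list median was 1.46. Without P0 replicate 4, 3 members were called higher (6.75% of all tested), and 4 were when library set entered the model (5.67% of all tested).

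Of the 4 miR-124 and miR-9 arms 0 were DE with edgeR in the comparison of all 8 libraries (2 at an unadjusted p under 0.05, and 1 DE with DESeq2), and their median log2 change was 0.53. Of all 652 tested miRNAs 7.06% were DE with edgeR, 150 had an unadjusted p under 0.05 with it and 81 were DE with DESeq2. MiR-124-3p, the miRNA most typical of neurons, was at 1802, 2747, 2251 and 1723 CPM at E16 and at 3540, 5522, 5558 and 27606 CPM at P0. All P0 libraries lay above all E16 libraries, but replicate 4 was far above the rest. The log2 change was 2.31 (SE 0.65, FDR 0.0536) with that library and 1.19 (FDR 0.019) without it. MiR-9-5p had a log2 change of 0.03 (SE 0.54, FDR 0.99). MiR-129-5p was at 258, 376, 428 and 324 CPM at E16 and at 1142, 1716, 2130 and 329 CPM at P0, so that replicate 4 overlapped the E16 libraries and the miRNA was not DE despite an FDR of 0.0488. MiR-128-3p, which dampens neuronal excitability, followed the same pattern, with 850 to 1619 CPM at E16, 2566 to 3210 CPM in P0 replicates 1 to 3 and 328 CPM in replicate 4 (log2 change 0.98, FDR 0.348; without replicate 4 FDR 0.00918). Of the 14 brain-enriched miRNAs tested 0 were DE with edgeR or DESeq2 (4 at an unadjusted p under 0.05 with edgeR). A positive log2 change was seen in 13, as in 374 of all 652 tested miRNAs, and the median of the 14 was 0.77. Without P0 replicate 4, 2 of the 14 rose, where 6.75% of all tested miRNAs did. Summed, these were at 4596 to 6422 CPM at E16 and at 9077 to 16138 CPM at P0. The oligodendrocyte list (miR-219 and miR-338) had 0 DE of 5 with edgeR or DESeq2 (1 at an unadjusted p under 0.05 with edgeR) and a median of -0.63. Its miR-338-3p and miR-338-5p had log2 changes of 1.24 and 0.77, and without P0 replicate 4 miR-338-3p was DE and higher (FDR 0.0262). The miR-219 members went the other way, with negative log2 changes in all 3 tested. Of the 5 list members, 2 were lower at P0 without overlap, as were 66 of all 652 tested miRNAs.

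**Figure D3:**
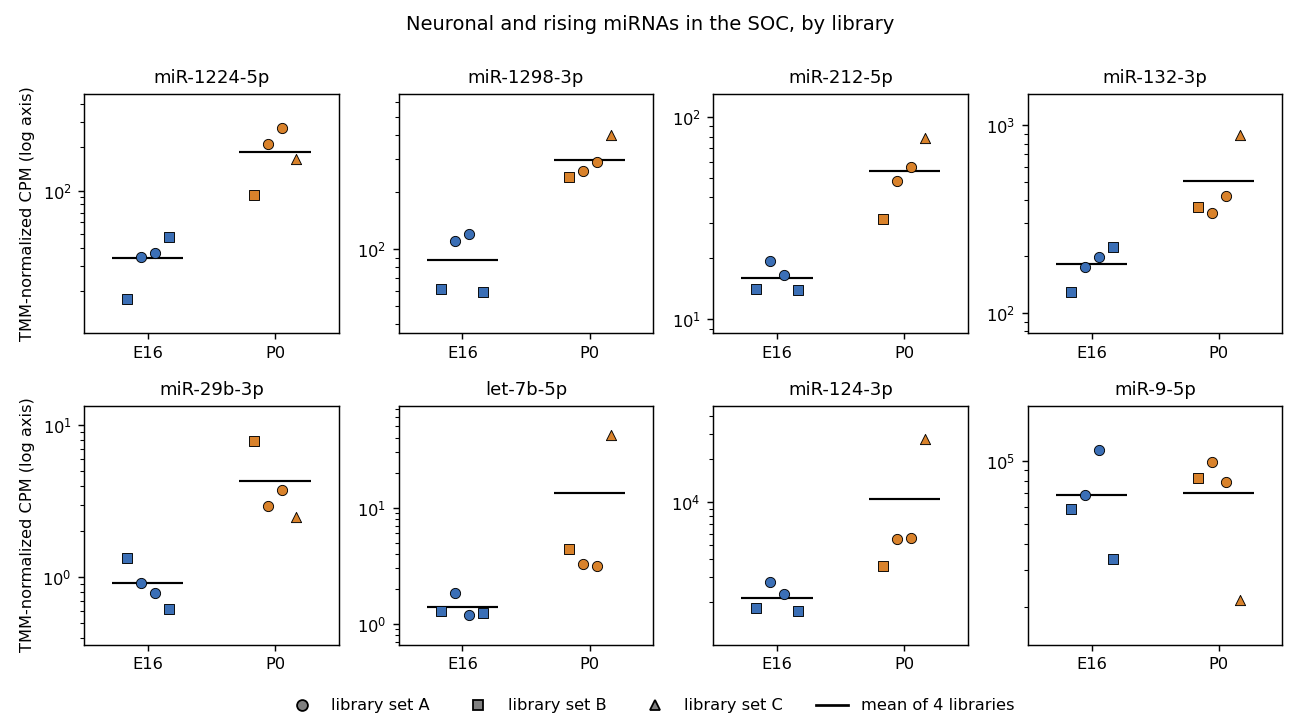
TMM-normalized CPM (log axis) of 8 neuronal or rising miRNAs in each E16 and P0 library, with marker shape for the library set and a line at the mean of 4 libraries. MiR-124-3p and let-7b-5p are highest in the set C library, while miR-9-5p is lowest there.

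Let-7b-5p and let-7c-5p, which share the seed GAGGUAG, had the highest log2 changes of all DE miRNAs. Their hairpins adjoin on chromosome 15 (chr15:85706603-85707403, plus strand, in Lncppara), and let-7c-5p has a further copy on chromosome 16 in an intron of Mir99ahg. The other arms let-7b-3p and let-7c-1-3p, the latter from the chromosome 16 hairpin, had log2 changes of 0.45 and -0.37 and were not DE. Let-7b-5p was at 1.28, 1.83, 1.19 and 1.23 CPM at E16 and at 4.37, 3.29, 3.14 and 42.2 CPM at P0, and let-7c-5p at 2.5, 1.45, 2.67 and 2.46 CPM and 7.02, 4.39, 8.39 and 42.8 CPM. No P0 library fell into the E16 range, and P0 replicate 4 set the size of both changes. The log2 change of let-7b-5p was 3.24 (SE 0.88, FDR 0.0488) with this library and 1.37 (FDR 0.0428) without it, and that of let-7c-5p was 2.77 (SE 0.72, FDR 0.0394) and 1.53 (FDR 0.0232). With the replicate block let-7b-5p was not DE (FDR 0.112), nor with RLE size factors (FDR 0.0505), limma (FDR 0.114) or set A alone (FDR 0.148). Leaving out any 1 E16 library also ended its call (FDR 0.106 to 0.129). Let-7c-5p was not DE with limma (FDR 0.0629), without P0 replicate 3 (FDR 0.0514) or without any 1 E16 library (FDR 0.0706 to 0.136). Both were DE with all 11 SOC libraries, library totals, other count filters and the library set as covariate. Of the 8 let-7 miRNAs tested, 2 rose, where 2.3% of all tested miRNAs did, and the median log2 change was 0.48. Let-7d-5p, the most abundant one, was at 554 to 985 CPM at E16 and 705 to 1828 CPM at P0 (log2 change 0.51, FDR 0.504). Since let-7 members differ by single bases and how the authors assigned reads shared by them is not given in the sources used here, the split among them is uncertain. MiR-29b-3p, a maturation-linked miRNA that targets collagens, was at 1.34, 0.917, 0.791 and 0.615 CPM at E16 and at 7.90, 2.92, 3.76 and 2.47 CPM at P0 (log2 change 2.21, SE 0.54, FDR 0.0305). MiR-29a-3p and miR-29c-3p, with 0 to 4 and 0 to 5 counts per library, were not tested.

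MiR-10a-5p, encoded in the HoxB cluster (chr11:96317165-96317274, plus strand), was at 2.21, 6.27, 5.34 and 2.11 CPM at E16 and at 8.51, 16.6, 19.3 and 29.9 CPM at P0 (log2 change 2.22, SE 0.54, FDR 0.0305). It was the 1 DE member of 5 tested from the Hox clusters, whose median was 1.89, where 7.06% of all tested miRNAs were DE. MiR-10b-5p, which shares its seed and lies in the HoxD cluster, had a log2 change of 1.92 (FDR 0.0912). In the imprinted Dlk1-Dio3 region, 1 of 79 tested miRNAs rose and 1 fell (median 0.37), where 2.3% and 4.75% of all tested miRNAs did. Without P0 replicate 4, 4 rose and 4 fell, where 6.75% and 8.48% of all tested miRNAs did. The DE miRNA that rose was miR-770-3p, from an exon of Meg3 (chr12:109563692-109563785, plus strand), at 81.1, 103, 105 and 208 CPM at E16 and 239, 374, 521 and 1287 CPM at P0 (log2 change 2.28, SE 0.57, FDR 0.0319). MiR-381-3p of this region was at 7015 to 11759 CPM at E16 and 1043 to 9595 CPM at P0 (log2 change -0.63, FDR 0.544). The region also encodes miR-127-3p, the most abundant miRNA of the comparison, at 174364 to 212128 CPM at E16 and 105570 to 274350 CPM at P0, with a log2 change of -0.14 (FDR 0.893).

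The other increases were of single miRNAs. MiR-1249-3p, miR-592-5p and miR-874-3p rose from 231 ± 50.7 to 857 ± 554 CPM, from 133 ± 28.0 to 347 ± 115 CPM and from 22.1 ± 4.65 to 69.8 ± 24.3 CPM. MiR-181d-5p was at 7.38 to 9.08 CPM at E16 and at 18.5 to 37.8 CPM at P0 (log2 change 1.57, FDR 0.0319), while miR-181a-5p, with the same seed and far more abundant, had a log2 change of 0.40 (FDR 0.759). MiR-871-3p was at 6.06 to 6.53 CPM at E16 and at 14.4 to 31.4 CPM at P0 (log2 change 1.78, FDR 0.019). MiR-3071-5p (log2 change 2.11, FDR 0.0461) and miR-592-5p (log2 change 1.38, FDR 0.0488) were not DE with the replicate block (FDR 0.101 and 0.0675). MiR-3071 is encoded opposite miR-136 within Rtl1, and without knowledge of strand in the counting their reads cannot be told apart. MiR-6390 rose at very low levels, from 0.489 ± 0.168 to 2.60 ± 1.04 CPM. P0 replicate 4 was the highest P0 library for 12 of the 15 increases and the lowest for 11 of the 31 decreases.

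Arms of a hairpin did not always share a call. Of 24 hairpins with both arms tested and at least 1 of them DE, paired by RefSeq position or by name, 5 had both DE (miR-140, miR-205, miR-214, miR-455 and miR-503). In the miR-3071 hairpin the 5p arm had a log2 change of 2.11 and the 3p arm one of 0.00, and in the miR-181d hairpin these were 1.57 and -0.16. Seeds were mostly represented once: among the 43 DE miRNAs with a RefSeq sequence, 2 seeds occurred in more than 1, AAUACUG (miR-200c-3p and miR-429-3p, both lower) and GAGGUAG (let-7b-5p and let-7c-5p, both higher).

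Changes were then compared within library sets, in a model of the 7 libraries of sets A and B. Within set A, 29 of the 31 decreases and 12 of the 15 increases had an FDR under 0.05, where 15.3% of the 635 miRNAs tested did. Within set B, with 1 P0 library, it was 23 decreases and 3 increases, where 7.87% of all did. MiR-206-3p had log2 changes of -4.80 in set A and -5.93 in set B, miR-182-5p of -2.92 and -2.83, and miR-1224-5p of 2.77 and 1.53. The median log2 change of the 31 decreases was -3.0 in set A and -3.23 in set B, and that of the 15 increases 1.64 and 1.5. The 46 were chosen as DE in libraries that include these 7, so nothing is read from how many of them passed within a set, and their equal direction in both sets follows from the criterion of no overlap. The spread behind the set B values comes from the other groups of the model, since its single P0 library is assumed to vary like them. A test of the difference between the sets called 0 of 635 miRNAs at an FDR under 0.05 with edgeR, with 26 at an unadjusted p under 0.05, and DESeq2 called 0, with 25. Without E16 replicate 1, which leaves 1 library of each age in set B, edgeR called 55.

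**Figure D4:**
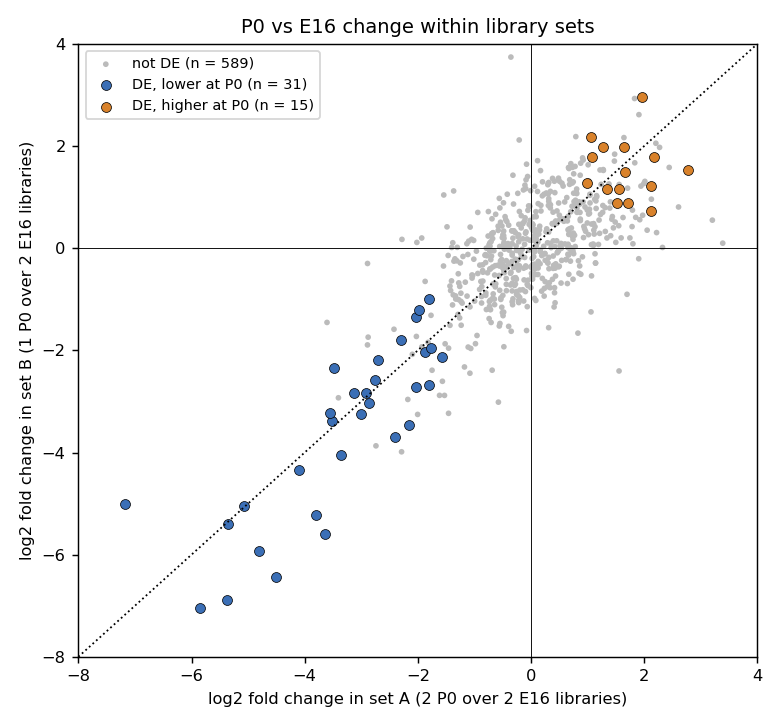
Log2 fold change (P0 over E16) of 635 miRNAs within set A on the x axis and within set B on the y axis, with the dotted line marking equal change. Blue points are the 31 DE miRNAs lower at P0 and orange points the 15 higher at P0; the medians of both groups lie near the line, at -3.0 and -3.23 for the decreases and 1.64 and 1.5 for the increases.

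The 3 SOC libraries of P16, after hearing onset, showed where these miRNAs stood later. They are described without a test, since E16 and P0 were shared with the comparison above, and 2 of the 3 are of the same kind as P0 replicate 4. For 29 of the 31 decreases all P16 libraries lay below all E16 libraries, and for 21 the P16 mean lay below the P0 mean. The 31 were chosen for E16 values above all P0 values, so nothing is read from the first count. Shares over all tested miRNAs are not given for these counts or for that of the increases. MiR-182-5p was at 2682, 416 and 1286 CPM at P16 and miR-205-5p at 2.23, 0.821 and 1.18 CPM, both below their P0 means of 10361 and 9.20 CPM on this scale. MiR-455-3p was at 11.4, 12.4 and 18.1 CPM at P16, between its P0 mean of 5.46 and its E16 mean of 37.0 CPM. Of the 15 increases 12 had a P16 mean above the P0 mean. MiR-212-5p was at 116, 214 and 216 CPM and miR-1224-5p at 225, 662 and 504 CPM. MiR-10a-5p went the other way, from a P0 mean of 17.7 CPM to 1.30, 1.17 and 1.08 CPM at P16, below its E16 mean of 3.89 CPM.

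**Figure D5:**
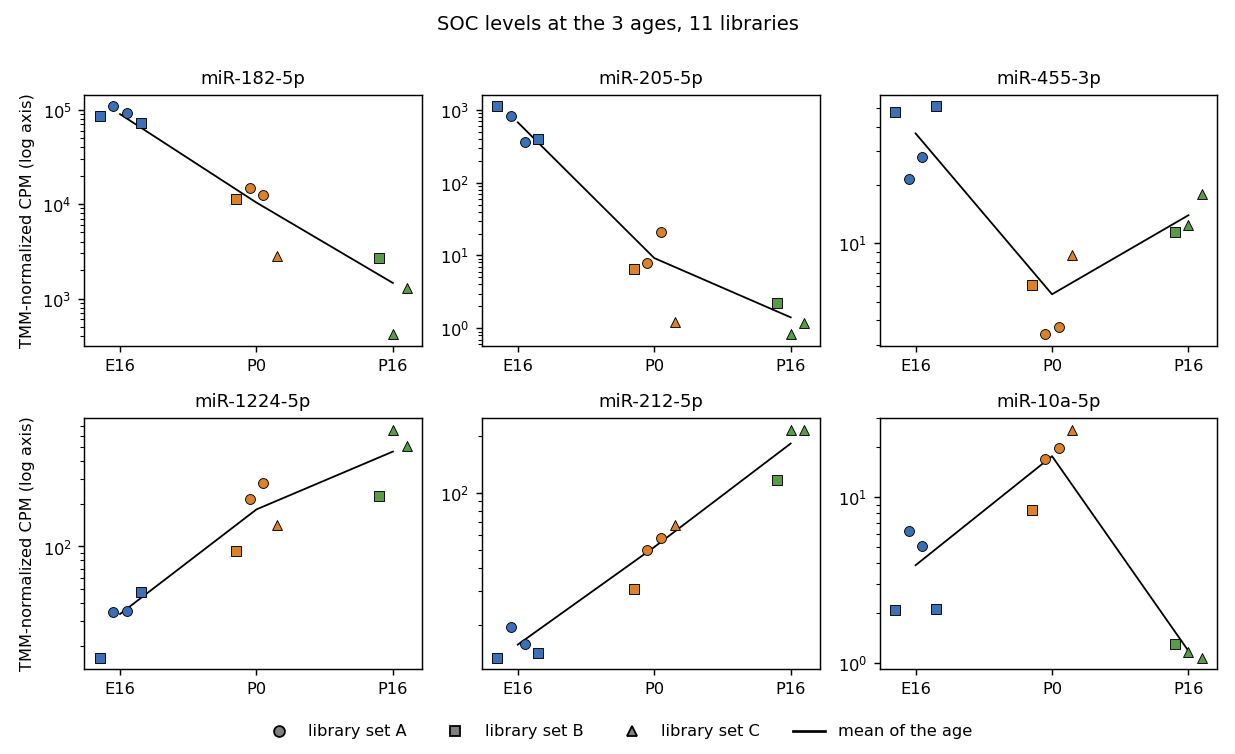
TMM-normalized CPM (log axis) of 6 DE miRNAs in the 11 SOC libraries of E16, P0 and P16, with the line joining the means of the ages and marker shape giving the library set. MiR-10a-5p is highest at P0, while miR-1224-5p and miR-212-5p have their highest means at P16 and miR-182-5p and miR-205-5p their lowest.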

How the data were processed

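The 8 SOC libraries (4 of E16, 4 of P0) were taken from one table in which the authors deposited raw counts, the reads assigned to each of 1647 mature miRNAs per library, without normalization. Small RNA libraries were sequenced as short single reads. The submitters' processing notes name mm10, Bowtie2 2.2.5 and DESeq2, the methods name Bowtie and MirGeneDB, and the table carries miRBase names. How reads were assigned is not given in the sources used here. As the reads carry no molecular identifiers, counts and the limits drawn from them cover counting error only.

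MiRNAs over 1 CPM in at least 2 libraries of either age were tested with edgeR 4.0.16 in R 4.3.3 (TMM, quasi-likelihood F test, Benjamini-Hochberg over 652 miRNAs), with the DE criteria given above. CPM are TMM-normalized, SE is the log2 change divided by the root of F, and the fits were tested on simulated data. Library sets were defined by over 10% of counts on miR-99b-5p (A), under 1% on miR-191-5p (C) and the rest (B). The 7 libraries of sets A and B were fitted in a set by age model, from which both marker miRNAs were left out. The methods call the samples of a group biological repeats, and p-values measure the spread between these libraries.

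Same-numbered E16 and P0 libraries deviated together (r = 0.510, 0.357, 0.254 and 0.248), although E16 replicate 3 correlated best with P0 replicate 2 (r = 0.419). P0 replicate 3 also correlated better with E16 replicate 2 (r = 0.286) than with E16 replicate 3, and all of these are set A libraries. E16 replicate 4 is of set B and its partner P0 replicate 4 of set C. By the rule that every same-numbered pair exceeds 0.1 the numbers were taken as pairs, from the values alone. These pairs were used in the replicate block only, and the main test was unpaired. Members, lists and the naming rule were chosen with earlier results of these data known. Named were the 12 largest decreases and increases among those DE miRNAs whose higher mean reached 10 CPM, miRNAs of the study's text, the 5 most abundant, and from each list the 3 most abundant and every DE member, and DE miRNAs beyond this rule were added after their values were seen. The alternatives tried were RLE size factors, DESeq2 1.42.0, limma 3.58.1 after quantile normalization of log2 CPM, library totals, other count filters, all 11 SOC libraries, the replicate block, library set as covariate, single sets, a fold change over 2, no overlap criterion, and each library left out. Sequences were found for 572 of the 652 miRNAs tested; positions and host genes are from RefSeq and GENCODE on GRCm38.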

Additional observations from a re-analysis of the deposited data

Results flagged for a closer look

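Both groups of 4 libraries were checked for each of 91 named or DE miRNAs for a library far from the other 3 on the log2 scale (Dixon's test at the 5% level), and 21 groups (11.5%) had one, where chance gives about 1 in 20. P0 replicate 4, the only library of set C, accounted for 11 of the 21. It was the highest P0 library for let-7b-5p (42.2 CPM against 3.14 to 4.37 in the others), miR-16-5p (66277 against 8065 to 10405), miR-25-3p (25023 against 3339 to 4288), miR-93-5p (7482 against 1631 to 1883), miR-181d-5p (37.8 against 18.5 to 20.3), miR-455-5p (127 against 30.2 to 35.2) and miR-592-5p (520 against 286 to 297). It was the lowest for miR-9-5p (21645 CPM against 78654 to 98283), miR-182-5p (3276 against 11393 to 14499), miR-128-3p (328 against 2566 to 3210) and miR-322-3p (8.25 against 50.9 to 59.5).

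The other such values were single ones. E16 replicate 1 was the highest of its group for miR-208b-3p (46.8 CPM against 21.5 to 23.5), miR-381-3p (11759 against 7015 to 7297) and let-7g-5p (14.1 against 8.56 to 9.30). E16 replicate 4 was the highest for miR-338-5p (57.7 CPM against 12.6 to 15.1) and the lowest for miR-3071-5p (1.76 against 4.85 to 5.76) and miR-455-5p (192 against 371 to 407). E16 replicate 2 was the highest for let-7b-5p (1.83 CPM against 1.19 to 1.28) and the lowest for let-7c-5p (1.45 against 2.46 to 2.67). E16 replicate 3 was the highest for miR-34c-3p (11.2 CPM against 7.99 to 8.33), and P0 replicate 3 was the lowest for miR-542-3p (19.4 CPM against 30.5 to 32.7).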

How the results depend on the processing

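None of the 46 DE miRNAs changed direction under any of the 21 alternatives that gave a value. Counts of DE miRNAs were close to 46 with RLE size factors (44), limma (52), all 11 SOC libraries (46), the replicate block (50, of which 42 were shared), a fold change over 2 (46), no overlap criterion (47), no filter (57 of 1417 tested), at least 10 counts (43 of 484) and library totals (53). Set B alone has 1 P0 library, which cannot show the spread at P0, so its total is not given. Its number of higher miRNAs is only listed among the counts that follow, and nothing is read from it. They moved to 81 with DESeq2 (38 higher, 43 lower), 88 with the library set as covariate (37 higher, 51 lower) and 203 in set A alone (112 higher, 91 lower), and the higher ones to 24 with library totals and 8 in set B alone. DESeq2 gave no adjusted p for let-7b-5p and miR-429-3p and called the other 44 of the 46. Leaving out 1 library gave 19 to 97 DE miRNAs, 1 to 43 of them higher and 17 to 54 lower. The total was 23, 24 and 27 without E16 replicates 1, 2 and 3, 19 without P0 replicate 3 and 97 without P0 replicate 4, and for the increases 5 without E16 replicate 4; fewer libraries remained in each of these. The difference between sets A and B gave 0 to 55 calls when libraries were left out, the highest without E16 replicate 1. The replicate block ended the calls named in the report and changed no other of the 46.

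Of the 45 named miRNAs that were not DE, 24 changed direction in at least 1 setting, and the cause was not tested. With the library set as covariate the log2 change was -0.25 for miR-15a-5p, -0.80 for miR-15b-5p, -0.48 for miR-16-5p, -0.15 for miR-181a-5p, -0.52 for miR-34c-3p, -0.13 for miR-451a, -0.28 for miR-92a-1-5p and -0.83 for miR-93-5p. In set A alone it was -0.0372 for miR-126a-3p, 0.29 for miR-127-3p, -0.33 for miR-15a-5p, -0.82 for miR-15b-5p, -0.41 for miR-16-5p, -0.21 for miR-181a-5p, 0.0928 for miR-191-5p, -0.0154 for miR-218-5p, -0.95 for miR-34c-3p, -0.45 for miR-451a, 0.0889 for miR-615-3p, -0.18 for miR-92a-1-5p and -0.81 for miR-93-5p. In set B alone it was -0.0953 for let-7d-5p, 0.0856 for miR-143-3p, -0.0407 for miR-15a-5p, -0.66 for miR-15b-5p, -0.48 for miR-16-5p, 0.0166 for miR-381-3p, -0.33 for miR-92a-1-5p and -0.76 for miR-93-5p. With the replicate block it was -0.0265 for miR-15b-5p, -0.15 for miR-34c-3p, -0.0144 for miR-9-3p, -0.0425 for miR-9-5p, -0.0957 for miR-92a-1-5p and -0.36 for miR-93-5p. With limma it was 0.0168 for let-7i-5p, 0 for miR-127-3p, 0.0417 for miR-143-3p, -0.16 for miR-34c-3p, -0.0177 for miR-9-3p, -0.0682 for miR-9-5p and -0.12 for miR-93-5p. With library totals it was 0.055 for let-7i-5p, 0.0364 for miR-25-3p, 0.0389 for miR-34b-3p and 0.0115 for miR-99b-5p. With RLE size factors it was 0.0236 for miR-25-3p. Without a filter it was -0.0131 for miR-541-5p, -0.052 for miR-92a-1-5p and -0.10 for miR-93-5p. With all 11 SOC libraries it was -0.0279 for miR-92a-1-5p and -0.0685 for miR-93-5p. With at least 10 counts in every library it was -0.0347 for miR-93-5p.

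When each library was left out in turn, log2 changes ranged from -0.34 to 0.0473 for let-7i-5p, -0.00595 to 1.61 for miR-126a-3p, -0.42 to 0.072 for miR-127-3p, -0.29 to 0.63 for miR-15a-5p, -0.91 to 1.82 for miR-15b-5p, -0.55 to 1.06 for miR-16-5p, -0.30 to 0.61 for miR-181a-5p, -0.67 to 0.0415 for miR-18a-5p, -0.71 to 0.0416 for miR-191-5p and -1.28 to 0.18 for miR-25-3p. They ranged from -0.52 to 0.0704 for miR-34b-3p, -0.52 to 0.41 for miR-34c-3p, -0.13 to 0.59 for miR-451a, -0.0884 to 0.24 for miR-541-5p, -0.57 to 0.0267 for miR-615-3p, -0.0431 to 0.52 for miR-9-3p, -0.14 to 0.38 for miR-9-5p, -0.47 to 0.21 for miR-92a-1-5p, -0.84 to 0.18 for miR-93-5p and -0.58 to 0.31 for miR-99b-5p. The miR-29 list gave no value with at least 10 counts, as none of its members passed. With 4 libraries per age, depth limits only miRNAs near 1 CPM, where 3 counts correspond to at most 0.336 CPM.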

Other observations

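Several lists held no DE miRNA but differed between P0 replicate 4 and the rest. Of all 652 tested miRNAs, 150 had an unadjusted p under 0.05 with edgeR and 81 were DE with DESeq2. The miR-15/16 family, which restrains the cell cycle, had 0 DE of 9 tested members with edgeR or DESeq2 (3 at an unadjusted p under 0.05 with edgeR) and a median log2 change of 0.45, or -0.55 without that library. Summed, its members were at 11520 to 17909 CPM at E16, 8516 to 11085 CPM in P0 replicates 1 to 3 and 71088 CPM in P0 replicate 4. The paralogs of miR-17~92 (miR-106b, miR-93, miR-25 and the X-linked cluster), which promote proliferation, were likewise at 11599 to 13582 CPM at E16, 5481 to 6450 CPM in P0 replicates 1 to 3 and 33075 CPM in P0 replicate 4, and 0 of 11 were DE with edgeR (2 at an unadjusted p under 0.05, and 2 DE with DESeq2). Without that library 3 of 11 were DE and lower at P0, where 8.48% of all tested miRNAs were. MiR-25-3p was one of them, at 8458 to 10109 CPM at E16 and 3339 to 4288 CPM in P0 replicates 1 to 3 (log2 change -1.28, FDR 0.00821).

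The list of ciliated cells and choroid plexus (miR-34b, miR-34c, miR-449 and miR-204) had 0 DE of 7 with edgeR or DESeq2, and 0 at an unadjusted p under 0.05 with edgeR. Of all 652 tested miRNAs, 150 were under that unadjusted p and 81 were DE with DESeq2. MiR-449a-5p, its most abundant member, was at 1351, 1457, 1106 and 356 CPM at E16 and at 284, 280, 194 and 1362 CPM at P0, so that P0 replicate 4 overlapped the E16 libraries. Its log2 change was -1.01 (FDR 0.388), and the FDR without that library was 0.00918. Without it 2 of the 7 were DE and lower, where 8.48% of all tested miRNAs were.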
